A study of Mus musculus with 4 samples.

Results

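The genes described here were counted in both libraries of USP9X-knockdown cells and were nearly or wholly without counts in both control libraries. A gene was taken when its rounded count reached 10 or more in each shUSP9X library and stayed at 3 or fewer in each shCtrl library, and 69 of the 22063 genes in the table met this rule. The reverse rule, at least 10 counts in both controls and at most 3 in both knockdown libraries, found 32 genes. Since the 69 genes were selected on these counts, their difference between the groups is a description and carries no test. Many of the 69 are known from leukocytes, the white blood cells. Of the 69, 21 stand in one of the 20 gene lists used below. The list of genes used by most leukocytes holds 10 of them, that of macrophages and monocytes 4, that of eosinophils 2 and that of neutrophils 0. The 20 lists are mostly of blood cells, were written with earlier results of these data known and hold 305 of the 22063 genes. These list counts are therefore a description and no support.

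ID8 is a mouse cancer line that was derived from ovarian surface epithelium. The libraries were made from poly(A)-selected RNA of ID8 cells labelled wild type that carried a control shRNA (shCtrl, 2 libraries) and of ID8 cells labelled as a USP9X knockdown (shUSP9X, 2 libraries). USP9X is a deubiquitinase, an enzyme that removes ubiquitin from proteins, and the study profiled both groups to look into how USP9X acts in TGF-β signalling and in cancer stem cells. The shRNAs of the study were delivered by a lentiviral vector with a puromycin resistance gene, so both groups carried a vector. Which hairpin the shUSP9X cells carried and whether the 2 libraries of a group came from separate cultures are not stated, so the p-values below measure only the spread between these libraries, which may be technical. The depth of shCtrl replicates 1 and 2 was 17232006 and 15611363 estimated counts, and that of shUSP9X replicates 1 and 2 was 19978889 and 17021261. The targeted gene, Usp9x (ENSMUSG00000031010, chromosome X, 13071498 to 13173328, GRCm38), was counted 5169 and 4453 times in the controls and 390 and 346 times after knockdown. Both knockdown libraries lay far below both controls, with 290 ± 11.6 CPM in shCtrl and 20.1 ± 0.570 CPM in shUSP9X (CPM, the count scaled to library size; mean ± SD, n = 2), which gave -3.85 as the log2 fold change (edgeR adjusted p = 4.7e-26). With a correction for transcript GC content and length this fold change was -2.41.

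Leukocytes are recognised by surface and signalling genes that other tissues scarcely use. Myeloid cells follow chemokine gradients through G protein-coupled receptors, survive on cytokines such as GM-CSF, IL-3 and IL-5 that signal through a shared beta chain, and adhere through integrins with the beta 2 chain. Paired activating and inhibitory immunoglobulin-like receptors set their threshold of activation through the kinase Syk or through phosphatases, and a membrane NADPH oxidase produces their oxidative burst. The transcription factor PU.1, encoded by Spi1, drives many of these genes from promoters that are poor in CpG dinucleotides and often have no TATA box. Spi1 itself had 0 counts in both shCtrl libraries and 3 and 6 counts in the shUSP9X libraries.

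The stretch before the start of 6 of the genes is shown because it holds, or in 1 case lacks, the letters of such motifs. Each run is the 200 bases before the RefSeq start of the gene in GRCm38.p6, written 5′ to 3′ on the strand of the gene. Capitals mark GAGGAA, the letters of a PU.1 site, TTCNNNGAA, the interferon-gamma activated site that STAT proteins bind, TGANTCA of AP-1 and AGATAA of GATA factors, all on either strand, so that TTCCTC is GAGGAA on the other strand.
Itgam (chr7:128062440-128062639, plus strand): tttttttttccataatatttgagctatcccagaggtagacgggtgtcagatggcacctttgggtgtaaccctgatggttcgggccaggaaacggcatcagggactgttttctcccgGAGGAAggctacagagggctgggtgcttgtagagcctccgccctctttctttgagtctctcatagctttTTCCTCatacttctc
Pirb (chr7:3720383-3720582, minus strand): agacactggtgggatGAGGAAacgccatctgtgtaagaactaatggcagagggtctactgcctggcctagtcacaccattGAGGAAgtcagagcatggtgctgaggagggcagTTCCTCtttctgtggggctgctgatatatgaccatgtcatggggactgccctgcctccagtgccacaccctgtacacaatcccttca
Siglecf (chr7:43351141-43351340, plus strand): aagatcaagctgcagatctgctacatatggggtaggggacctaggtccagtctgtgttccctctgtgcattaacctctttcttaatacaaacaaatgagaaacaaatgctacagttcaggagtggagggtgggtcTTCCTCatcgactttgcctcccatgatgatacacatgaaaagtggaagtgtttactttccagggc
Ccr3 (chr9:124021771-124021970, plus strand): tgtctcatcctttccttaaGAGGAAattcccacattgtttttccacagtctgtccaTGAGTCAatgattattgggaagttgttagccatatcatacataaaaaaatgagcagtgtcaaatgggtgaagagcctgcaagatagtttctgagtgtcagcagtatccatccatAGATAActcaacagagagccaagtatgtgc
Csf2rb2 (chr15:78305722-78305921, minus strand): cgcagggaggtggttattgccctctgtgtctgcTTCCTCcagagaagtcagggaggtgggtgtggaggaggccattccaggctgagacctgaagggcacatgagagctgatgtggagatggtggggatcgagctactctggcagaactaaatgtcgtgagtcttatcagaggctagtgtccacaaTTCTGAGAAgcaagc
Ccl6 (chr11:83593088-83593287, minus strand): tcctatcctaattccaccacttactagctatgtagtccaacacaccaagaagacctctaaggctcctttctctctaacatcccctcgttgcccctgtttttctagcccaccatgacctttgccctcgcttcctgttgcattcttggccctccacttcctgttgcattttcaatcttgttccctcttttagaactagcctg
In Itgam the PU.1 letters lay 84 to 79 and 15 to 10 bases before the start. Pirb held them in 3 places, and Siglecf, Ccr3 and Csf2rb2 in 1 place each. Ccr3 also held the AP-1 letters at 144 to 138 and the GATA letters at 30 to 25 bases before the start, and Csf2rb2 the STAT letters at 15 to 7. The stretch of Ccl6 held none of the 6 motifs searched, although Ccl6 had the highest count of all 69 genes. Such a match is a string of letters and not a measured binding site.

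A RefSeq window from 250 bases before to 50 after the start was at hand for 53 of the 69 genes. Some windows lie far from the gene start in the annotation used for positions. The distance was 43663 bases for Plek, 18447 for Cybb and 12841 for Notch1, and such windows are counted too. GAGGAA occurred on either strand in 31 of these 53 windows (58.5%), beside 25.8% of the windows of 9045 other genes that were abundant enough to be tested and 28.3% of all 32851 windows of the promoter table. In the reverse set it occurred in 4 of 20 windows (20%). AGATAA occurred in 10 windows (18.9%, beside 5.74 and 11.2%), TATAAA in 9 (17.0%, beside 6.48 and 13.6%) and TGANTCA in 7 (13.2%, beside 4.48 and 7.81%). The interferon-stimulated response element, 2 copies of GAAA with any 2 bases between them, occurred in 4 windows (7.55%, beside 2.99 and 3.44%), among them Ifit3b and Ncf1. TTCNNNGAA also occurred in 4 windows (7.55%, beside 6.78 and 8.30%). Among the genes with no window were Adgre1, Csf1r, Csf2rb, Fndc7, Gm20431, Gm49339, Gsta5, Lilrb4b, Misp, Nckap1l, Pira12, Rab44, Rac2 and Trdc.

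The windows were also poor in CpG. The ratio of observed to expected CpG had a median of 0.316 over the 53 windows, 0.783 over the 9045 windows of other tested genes and 0.384 over all windows of the promoter table. A ratio of at least 0.6 was found in 11 of the 53 windows (20.8%) and in 76.3% of the windows of other tested genes. For the 20 windows of the reverse set the median was 0.377. The low ratio was thus not particular to the genes counted in shUSP9X.

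**Figure D1:**
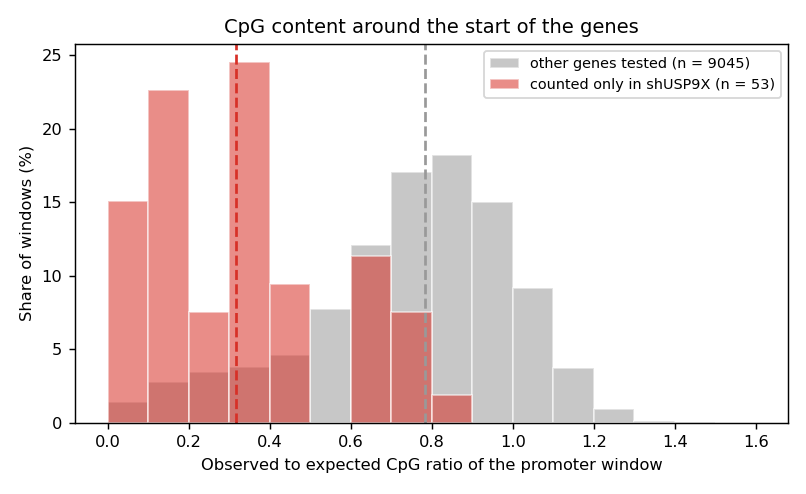
Observed to expected CpG ratio (x axis) of the promoter windows of 53 genes counted only in shUSP9X (red) and of 9045 other tested genes (grey), as a share of the windows of each set in percent (y axis). Dashed lines mark the medians, 0.316 and 0.783, and most red bars lie to the left of most grey bars.

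All 69 genes together were a very small part of each library. The controls held 34.3 and 33.3 counts of them in all, or 0.000199 and 0.000214% of each library, and the knockdown libraries 1882 and 1624, or 0.00942 and 0.00954%. In the shCtrl libraries 49 and 51 of the genes were at 0, and 39 were at 0 in both. Of the others, 24 had 1 to 3 counts over both shCtrl libraries and 6 had 4 or more. The groups do not overlap for any of the 69 genes because the rule requires it. For comparison, 33.8% of all 11448 genes tested were higher and 33.6% lower in shUSP9X at an edgeR adjusted p under 0.05, so differences between these groups were common throughout the table. Of the 69 genes, 64 were abundant enough to enter that test, and Serpinf1, Cd37, Nckap1l and Fndc7 were among those that were not.

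Between the knockdown libraries the 69 genes had similar counts, but the rule partly fixes this. It required a minimum count in each shUSP9X library, so genes below that minimum in either library were left out. The likeness of the replicates is therefore a description of the selected genes and no independent finding. The ratio of replicate 1 to replicate 2 had a median of 1.18 and ran from 0.577 to 2.29, beside a ratio of 1.17 between the library totals. The shUSP9X counts had medians of 19 and 16.1, and 35 genes had fewer than 20 counts in both libraries. Ccl6 alone reached 100 counts in both, and 6 genes (Ccl6, Itgam, Srgn, Lcp1, F5 and Adgre1) reached 50. Per transcript length the levels were low as well, with median FPKM values of 0.443 and 0.435 beside 12.1 and 12.0 over all genes tested. Ccl6, Srgn, Cxcl3, Retnla, Pigz, Vnn3 and Gstp2 were the 7 genes with an FPKM of at least 1 in both shUSP9X libraries.

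**Figure D2:**
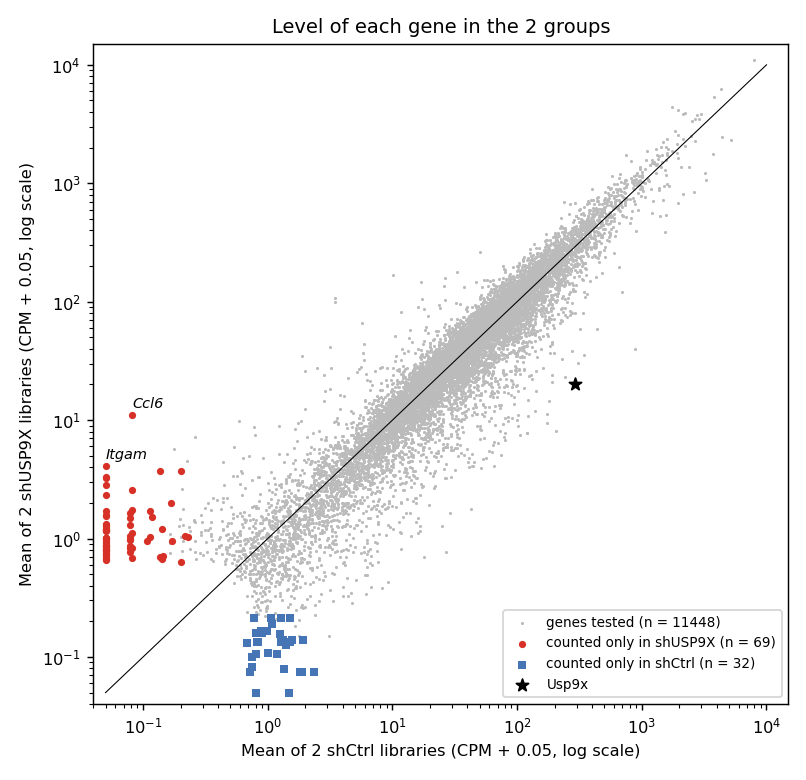
Mean level of each gene in the 2 shCtrl libraries (x axis) and the 2 shUSP9X libraries (y axis), in CPM + 0.05 on log scales, with the 69 genes in red, the 32 genes of the reverse set in blue, Usp9x as a star and other tested genes in grey. The 69 genes lie along the left edge, and Ccl6 stands highest at 11.1 CPM.

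The number of genes depends on where the limits are set. With at least 5 counts in shUSP9X in place of 10 there were 138 genes and 120 in the reverse set, and with at least 20 there were 19 and 7. With 0 counts required in the other group there were 39 genes and 2 in the reverse set. Scaling all counts to the smallest library, since the depths differ, left 55 genes and 35 in the reverse set. At a still lower limit, more than 3 counts in both libraries of one group and at most 3 in both of the other, 185 genes (0.839% of the table) were detected only in shUSP9X and 172 (0.78%) only in shCtrl. The sets were closest in size at the lowest limits. Just inside the rule, Cd300lf had no count in the controls and 13 and 10 in shUSP9X libraries, and Clec2d had 1 and 2 against 13 and 10. Fndc7 and Pira12 were also near the limit. Just outside it, Arap3 had 1 and 0 counts in the controls and 16 and 9 in shUSP9X, and Arhgap30 had 3 and 3 against 9 and 9. Anxa10, Acox2 and Arhgap4 were also outside through low counts in shUSP9X. On the control side, 15 genes missed the rule through a rounded shCtrl count of 4, among them Cd74 and Zbp1.

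Secreted proteins took the largest share of the counts, 17.6 and 19.8% of the sum over the 69 genes in the shUSP9X libraries, but 6.69 and 7.58% without Ccl6. Ccl6, a C-C chemokine of myeloid cells (ENSMUSG00000018927, chromosome 11, 83587882 to 83593087), had 0 and 1 counts in the controls and 205 and 198 in shUSP9X. The level in shUSP9X was 11.1 ± 0.976 CPM (SD, n = 2). The ratio of the groups was 365, with a 95% interval from counting error alone of 65.1 to 14448. The rule chose the gene by these same counts, so this interval and those below are a description. F5, which encodes coagulation factor V (ENSMUSG00000026579, chromosome 1, 164151838 to 164220277), had no count in shCtrl and 65 and 55 in shUSP9X. Where both shCtrl libraries were at 0, a count of 0 allows up to 3 counts per library. That is 0.173 and 0.19 CPM on the TMM scale of the CPM values given here. Against the mean of these floors F5 was at least 18.1-fold higher, with its shUSP9X level taken as measured. Such a bound, here and below, leaves out the counting error of shUSP9X and the choice of genes by these counts. Cxcl3, a chemokine that attracts neutrophils, had 0 in shCtrl and 23 and 19 counts in shUSP9X, and Retnla, a resistin-like protein of alternatively activated macrophages, had 0 and then 16 and 19. Prl2c3, a proliferin of the prolactin family, and Serpinf1, a secreted serpin, had between 10 and 16.1 counts in shUSP9X libraries.

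Besides Ccl6, 16 other C-C chemokines were listed and 7 of them were tested, of which 2 (28.6%) rose, beside 33.8% of all genes tested. Ccl5 rose from 22 and 21 to 84 and 75 counts (log2 fold change 1.74, SE 0.30, edgeR adjusted p = 1.3e-05) and Ccl2 from 953 and 758 to 1740 and 1478 (0.77, SE 0.06, edgeR adjusted p = 5.0e-11), and none fell. Ccl9, another myeloid chemokine, had 138 and 85 counts in the controls and 195 and 114 in shUSP9X, which did not pass the test (edgeR adjusted p = 0.151). Ccl3, which did not pass the filter, had 0 in shCtrl and 8 and 5 in shUSP9X. The median log2 fold change of the 7 tested genes was 0.12, beside -0.00051 over all genes tested. Among the 7, Ccl28, which was not called, passed the filter on low counts through shUSP9X only.

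The 6 receptors for chemokines and cytokines comprised both mouse beta chains. Csf2rb, the shared chain of the GM-CSF, IL-3 and IL-5 receptors (ENSMUSG00000071713, chromosome 15, 78325752 to 78353847), had no count in shCtrl and 59.6 and 43 in shUSP9X, at least 15.4-fold higher. Csf2rb2, the copy of this chain that serves IL-3 alone (ENSMUSG00000071714, chromosome 15, 78282507 to 78305721), had no count in shCtrl and 33.4 and 28 in shUSP9X, at least 9.23-fold higher. The genes lie 20031 bases apart and are close copies, so the division of reads between them is uncertain, and their first shUSP9X counts are not whole numbers. Ccr3, the eotaxin receptor of eosinophils (ENSMUSG00000035448, chromosome 9, 124021972 to 124031689), had 0 counts in shCtrl and 35 and 22 in shUSP9X. Ccr1, a receptor of inflammatory C-C chemokines that lies 53280 bases from it, had 0 and then 18 and 17. Il1rl1, the IL-33 receptor, had 1 and 0 counts in the controls and 34 and 25 in shUSP9X. Csf1r, the receptor for the macrophage growth factor M-CSF, had 0 and then 17 and 13.

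The partners of the beta chain did not share this pattern. Csf2ra, the alpha chain of the GM-CSF receptor, had 52 and 59 counts in the controls and 51 and 53 in shUSP9X, and Il3ra, that of the IL-3 receptor, had 36 and 29 against 35 and 27. Neither passed the test (edgeR adjusted p = 0.459 and 0.597). Il5ra, which makes the receptor bind IL-5, had 4 and 2 counts in the controls and 0 and 2 in shUSP9X, and Il5 had 1 and 1 and then 15 and 5. Of 14 tested genes of this pathway other than the beta chains, 3 (21.4%) rose and 4 (28.6%) fell, beside 33.8 and 33.6% of all genes tested, with a median log2 fold change of 0.05. Jak2, the kinase that the beta chain binds, fell from 1902 and 1694 to 872 and 753 counts (log2 fold change -1.29, SE 0.06, edgeR adjusted p = 1.4e-16). Socs2 and Pim1, early targets of the pathway, fell by 1.01 and 0.77 on the log2 scale (edgeR adjusted p = 6.3e-05 and 2.0e-11). Bcl2l1, a survival gene, rose by 0.37 (edgeR adjusted p = 6.2e-07), as did Socs1 (0.89, edgeR adjusted p = 0.0290) and the phosphatase gene Ptpn11 (0.13, edgeR adjusted p = 0.00443). The call of Socs1 was lost without shCtrl replicate 1 or either shUSP9X library, and that of Ptpn11 without shUSP9X replicate 1. Of the 22 other chemokine receptors, Ccr7 alone passed the filter, and it rose from 123 and 125 to 306 and 231 counts (0.97, SE 0.14, edgeR adjusted p = 1.4e-06).

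**Figure D3:**
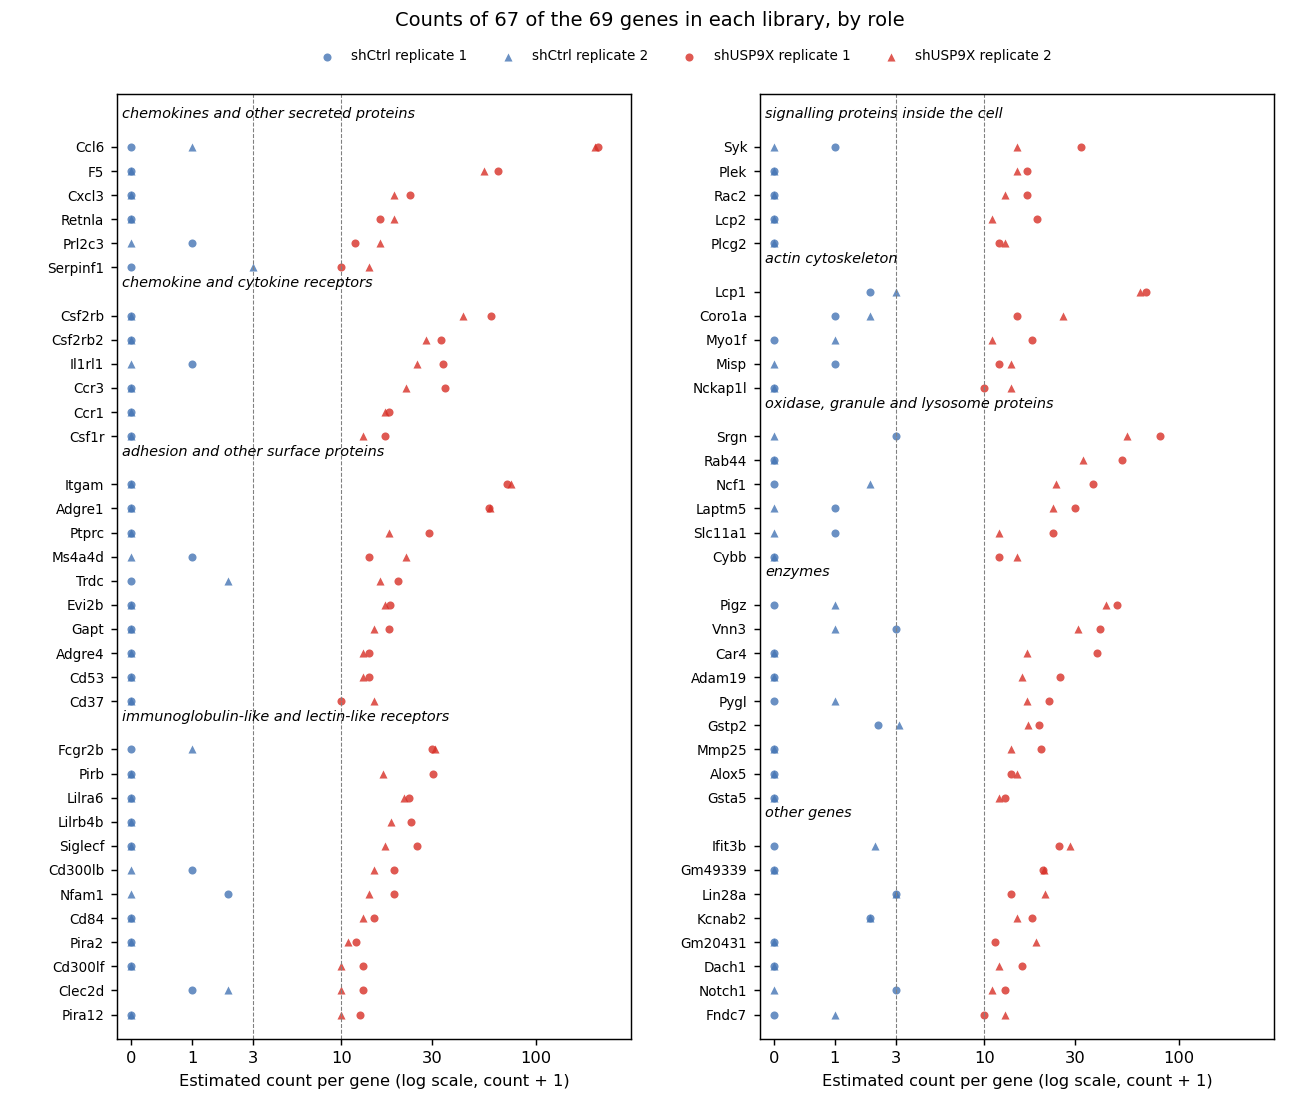
Estimated count of 67 of the 69 genes in the 4 libraries (x axis, count + 1 on a log scale), grouped by the role of the protein (y axis), with shCtrl in blue and shUSP9X in red. Dashed lines mark the limits of 3 and 10 counts, between which no gene has a point after rounding because the rule keeps that range empty.

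The 10 adhesion and other surface proteins held markers of the myeloid surface. Itgam, the alpha M chain of the beta 2 integrin Mac-1 (ENSMUSG00000030786, chromosome 7, 128062640 to 128118491), had 0 counts in shCtrl and 72 and 75 in shUSP9X, at least 22.3-fold higher. Adgre1, which encodes F4/80, an adhesion receptor of macrophages and eosinophils (ENSMUSG00000004730, chromosome 17, 57358691 to 57483527), had 0 and then 58 and 59, at least 17.7-fold higher. Ptprc, the CD45 phosphatase of all nucleated blood cells (ENSMUSG00000026395, chromosome 1, 138062861 to 138175708), had 0 and then 29 and 18. In these 3 genes every shCtrl library was at 0. Adgre4, a receptor of the same family as Adgre1, the tetraspanins Cd53 and Cd37, Gapt and Evi2b were also at 0 in both shCtrl libraries and had between 10 and 18.3 counts in shUSP9X. Ms4a4d had 1 and 0 against 14 and 22. Trdc, the constant segment of the T cell receptor delta chain, had 0 and 2 against 20 and 16. Of the 69 genes, 13 overlap another gene, among them Evi2b (Nf1), Itgam, Cd37, Csf1r (Hmgxb3), Ncf1 (Gtf2ird2), Coro1a (Bola2), Plek, Lcp2, Kcnab2 and Cd300lf (Rab37), and without a stated strand setting reads in the overlap cannot be told apart.

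The beta partner of Itgam was counted in all 4 libraries. Itgb2 had 6 and 7 counts in the controls and 61 and 41 after knockdown. It passed the filter on low counts, a level of 0.584 CPM in 2 libraries, through shUSP9X only, as did Cd74, Zbp1, Mx1, Dhx58 and Ifit3 below, so their tests are no independent support. Of the 3 leukocyte integrin and ligand genes tested besides Itgam and Itgb2, 2 (66.7%) were called higher and 1 (33.3%) lower, beside 33.8 and 33.6% of all genes tested. Itgb7 (1.91, edgeR adjusted p = 1.5e-06) and Icam1 (1.05, edgeR adjusted p = 4.2e-09) rose and Vcam1 fell (-1.40, edgeR adjusted p = 9.8e-07).

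The 12 immunoglobulin-like and lectin-like receptors were counted at 9.96 to 31 in the shUSP9X libraries. Fcgr2b, the inhibitory receptor for IgG, had 0 and 1 counts in the controls and 30 and 31 in shUSP9X. Pirb, an inhibitory receptor for MHC class I (ENSMUSG00000058818, chromosome 7, 3711409 to 3720391), had 0 and then 30.4 and 16.7. Siglecf, a sialic acid receptor that marks eosinophils (ENSMUSG00000039013, chromosome 7, 43351341 to 43359531), had 0 and then 25 and 17, at least 6.27-fold higher. Lilra6, Pira2 and Pira12, activating partners of Pirb in the same cluster on chromosome 7, were at 0 in shCtrl and had 22.9 and 21.5, 12.1 and 10.9, and 12.6 and 9.96 counts in shUSP9X. Lilra6 lies 10160 bases and Pira2 39191 bases from Pira12. Lilrb4b, an immunoglobulin-like receptor on chromosome 10, had 23.5 and 18.4, and the gene model Gm49339, which overlaps it, had 20.6 and 20.7. The counts of these copies are not whole numbers, which shows that reads were divided between them, and the share of each is uncertain. Cd300lb, Cd300lf, Cd84, Clec2d and Nfam1 had 10 to 19 counts in shUSP9X libraries.

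Some relatives of these receptors that missed the rule were detected in the same libraries. Of 9 CD300 and Siglec genes outside the 69, 5 had more than 3 counts in each shUSP9X library, beside 1 (Siglecg) in each shCtrl library. Cd300a, Cd300ld, Siglece and Cd33 had 5 to 10 counts in shUSP9X libraries and at most 1 in shCtrl, 4 of the 9 genes beside 0.839% of all genes in the table. Of the 3 paired receptor genes outside the 69, Lilrb4a was at 0 in the controls and had 15.0 and 6.91 counts after knockdown, and the other 2 did not exceed 3. These receptor lists and those for immunoreceptor signalling, the NADPH oxidase and leukotrienes were written after the values had been seen.

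The proteins that carry receptor signals inward were counted alongside. Syk, the tyrosine kinase of immunoreceptors (ENSMUSG00000021457, chromosome 13, 52583173 to 52648792), had 1 and 0 counts in the controls and 32 and 15 in shUSP9X. Its adaptor Lcp2 had 0 and then 19 and 11, and Plcg2, the phospholipase downstream, 0 and then 12 and 13. Rac2, a GTPase of leukocytes, had 0 and then 17 and 13, and Plek, the platelet and leukocyte protein pleckstrin, 0 and then 17 and 15. The FPKM of Rac2 was 1.85 and 0.251 in the knockdown libraries, so its FPKM values were less alike than its counts. Of 13 immunoreceptor genes that missed the rule, 3 exceeded 3 counts in each shUSP9X library only, beside 0.839% of all genes in the table. These were Tyrobp, Btk and Inpp5d, with 4 to 11 counts in shUSP9X and 0 in shCtrl. Vav3 fell (log2 fold change -1.14, edgeR adjusted p = 1.4e-12) and Vav2 rose (0.21, edgeR adjusted p = 0.0309), although the call of Vav2 was lost without shCtrl replicate 1 or either shUSP9X library, and 3 tested genes were not called.

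Regulators of the actin cytoskeleton formed a further group of 5. Lcp1, the leukocyte plastin that bundles actin (ENSMUSG00000021998, chromosome 14, 75131101 to 75230842), had 2 and 3 counts in the controls and 69 and 64 in shUSP9X, a ratio of 24.1 with a counting interval of 10.1 to 75.4. Coro1a, coronin of leukocytes, had 1 and 2 and then 15 and 26. Myo1f, Nckap1l, a subunit of the WAVE complex in blood cells, and Misp, an actin-binding protein of epithelium, had 10 to 18.

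Subunits of the oxidase were among the 69 genes. Cybb, the catalytic subunit, had 0 counts in shCtrl and 12 and 15 in shUSP9X. Ncf1, the cytosolic organizer (ENSMUSG00000015950, chromosome 5, 134220053 to 134229625), had 0 and 2 and then 37 and 24. The subunits that missed the rule, Cyba and Ncf4, had 0 counts in shCtrl and 10 and 6, and 6 and 3, in shUSP9X. Rac1, a GTPase of all cells that serves the oxidase too, was not called (log2 fold change 0.04, edgeR adjusted p = 0.297). Granule and lysosome genes were counted too. Srgn, the proteoglycan core of secretory granules (ENSMUSG00000020077, chromosome 10, 62493833 to 62527451), had 3 and 0 counts in the controls and 81 and 55 in shUSP9X, a ratio of 41.0 with a counting interval of 13.8 to 202. Rab44, a large Rab GTPase, had 0 and then 52 and 33, Laptm5, a lysosomal membrane protein of blood cells, 1 and 0 and then 30 and 23, and Slc11a1, a metal transporter of the phagosome, 1 and 0 and then 23 and 12.

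Among the 9 enzymes, Pigz, which adds a mannose to GPI anchors, had the highest counts, at 0 and 1 in shCtrl and 49 and 43 in shUSP9X. Vnn3, a pantetheinase, had 3 and 1 against 40 and 31, and Car4, a membrane carbonic anhydrase, 0 against 39 and 17. Alox5, the first enzyme of leukotriene synthesis, had 0 counts in shCtrl and 14 and 15 in shUSP9X. Its membrane partner Alox5ap rose from 27 and 21 to 65 and 54 counts (log2 fold change 1.16, SE 0.31, edgeR adjusted p = 0.00197), while Pla2g4a fell by 0.58 on the log2 scale (edgeR adjusted p = 1.7e-10) and Ltc4s was at 0 throughout. The fall of Lta4h by 0.14 (edgeR adjusted p = 0.0408) was not called without either shCtrl library or shUSP9X replicate 2, and turned to 0.0074 with the correction for GC content and length. Adam19, Mmp25 and Pygl, a metalloprotease of the disintegrin family, a matrix metalloprotease and a glycogen phosphorylase, had 14 to 25 counts. Gstp2 and Gsta5, glutathione transferases, had counts that are not whole numbers, at 19.5 and 17.2, and 13.0 and 12.1. They lie beside the close copies Gstp1 and Gm3776, which rose from 2353 and 2155 to 6028 and 5157 counts (log2 fold change 1.17) and from 41.1 and 70.0 to 2097 and 1823 counts (log2 fold change 5.0), both with an edgeR adjusted p of at most 8.5e-19, so the counts of Gstp2 and Gsta5 are uncertain.

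The remaining 8 genes have no common role. Ifit3b, an antiviral protein that interferon induces, had 0 and 2.17 counts in the controls and 24.8 and 28.1 in shUSP9X, and it shares reads with its copy Ifit3. Of 29 tested interferon genes other than Ifit3b, Zbp1 and Mx1, 24 (82.8%) were higher and 3 (10.3%) lower, beside 33.8 and 33.6% of all genes tested, with a median log2 fold change of 2.34. Dhx58 and Ifit3, counted as higher, passed the filter through shUSP9X only, so they are no independent support. Ifi205, which was not called, passed it through shCtrl only. Zbp1, at 3 and 4 counts in the controls and 140 and 122 in shUSP9X, missed the rule by 1 count, as did Mx1. Oas2 (4.23) and Irf7 (4.06) had the largest changes of the 29 genes (edgeR adjusted p = 4.3e-18 and 4.0e-25). Notch1, a receptor of cell fate, Lin28a, an RNA-binding protein of stem cells, Dach1, a transcriptional regulator, Kcnab2, a potassium channel subunit, and Fndc7 had 10 to 21 counts in shUSP9X libraries. The gene model Gm20431, which overlaps Ube2v1, had 11.5 and 18.95.

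Cell type lists were read with the 69 genes left out, since the rule fixes the counts of those, and the lists were written with earlier results of these data known. Of 22 genes used by most leukocytes, 10 belong to the 69. Of the other 12, 2 and 2 had more than 3 counts in the shCtrl libraries and 6 and 8 in the shUSP9X libraries, and 8 and 10 were at 0 in shCtrl. Without Arhgdib, the most abundant, they summed to 11 and 7 counts in the controls and 103 and 85 after knockdown. Itgb2 alone gave 6 and 7 of these counts in the controls and 61 and 41 after knockdown. Of these 12, Arhgdib rose (1.65, SE 0.23, edgeR adjusted p = 3.8e-07), Itgb2 passed the filter through shUSP9X only and the other 10 did not pass it. Tyrobp, Hcls1, Cytip and Dock2 exceeded 3 counts in each shUSP9X library and did so in neither control, a pattern that 0.839% of all genes in the table had. Markers of ovarian surface epithelium and mesothelium, 18 genes, varied in level. Krt8, Krt18, Krt19, Wt1, Msln, Upk3b, Upk1b and Vim had at least 2514 counts in each of the 4 libraries. Muc16, at 33 and 43 counts in the controls and 1 and 0 after knockdown, and Lrrn4, at 23 and 17 and then 9 and 5, passed the filter through shCtrl only. Of the other 13 genes tested 5 (38.5%) rose and 5 (38.5%) fell, beside 33.8 and 33.6% of all genes tested, with Krt8 at 0.92 (edgeR adjusted p = 5.5e-18). Krt7 and Epcam, which are in the same list, had at most 6 counts in any library, and Pax8 at most 9.

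**Figure D4:**
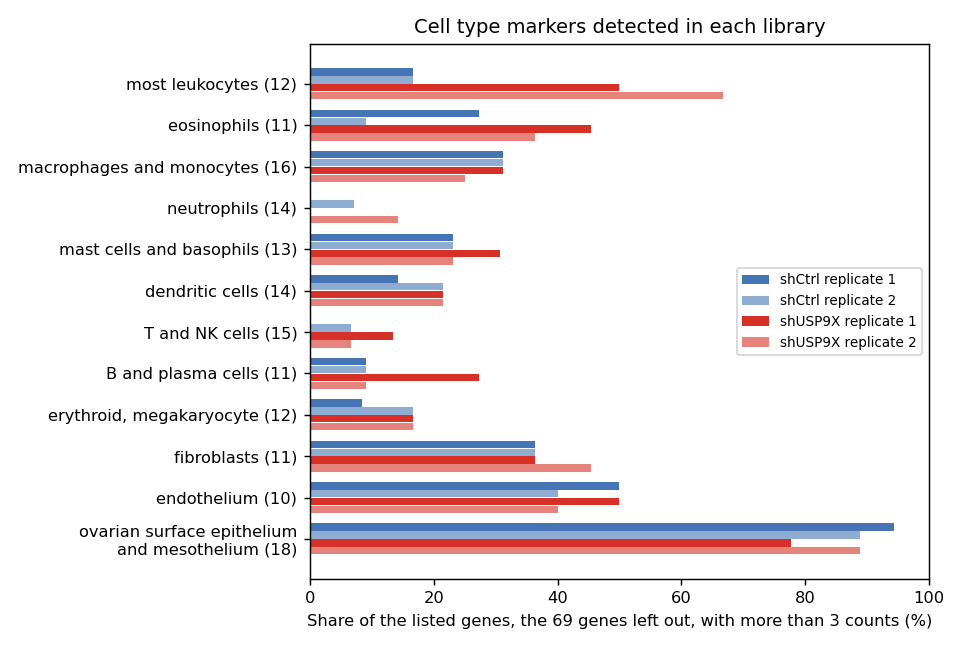
Share of the genes of each marker list, the 69 genes left out, with more than 3 counts (x axis, percent) in each of the 4 libraries, with the number of genes in brackets, shCtrl in blue and shUSP9X in red. For genes of most leukocytes the red bars stand for 6 and 8 of 12 genes and the blue bars for 2 and 2, and for macrophages and monocytes for 5 and 4 of 16 against 5 and 5.

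The eosinophil list gave a mixed picture. Of its 13 genes, Ccr3 and Siglecf are of the 69. Prg2, the major basic protein of eosinophil granules, had 0 counts in shCtrl and 8 and 5 in shUSP9X, and Ear6, a granule ribonuclease, 0 and then 8 and 13. Alox15, the 15-lipoxygenase, had 4 and 0 and then 18 and 9. The defining granule peroxidase gene Epx had only 1 and 2 counts in shUSP9X, and Prg3 was at 0 in all libraries. Il5ra, also of this list, had 4 and 2 counts in the controls and 0 and 2 in shUSP9X. Ear1, Ear2 and Cebpe had 1 to 3 counts in each shUSP9X library and at most 1 in shCtrl. The most abundant gene of the list, S100a6, is also used by epithelial cells and fell from 26491 and 22900 to 14340 and 11965 counts (log2 fold change -1.05, SE 0.03, edgeR adjusted p = 5.9e-20). Without it and without Ccr3 and Siglecf the list summed to 9 and 5 counts in the controls and 49 and 38 in shUSP9X.

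Markers of macrophages and monocytes gave a mixed picture too. Itgam, Adgre1, Csf1r and Adgre4 of the 20 listed genes are of the 69. The most abundant gene, Mpeg1, a pore-forming protein of phagocytes that interferon also induces, rose from 140 and 124 to 506 and 492 counts (log2 fold change 1.78, SE 0.12, edgeR adjusted p = 9.4e-13), and Cd14 rose by 0.80 (edgeR adjusted p = 1.1e-04). Cd68, the remaining tested gene outside the 69, was not called (edgeR adjusted p = 0.125). Thus 2 of 3 tested genes (66.7%) rose, beside 33.8% of all genes tested. Lyz2, C1qa, C1qb, C1qc, Fcgr1, Marco, Cx3cr1 and Ms4a7, which define macrophages, had at most 2 counts in any library. Of the 16 listed genes outside the 69, 5 and 5 had more than 3 counts in shCtrl and 5 and 4 in shUSP9X. Without Mpeg1 these 16 summed to 193 and 174 counts in shCtrl and to 335 and 264 in shUSP9X.

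**Figure D5:**
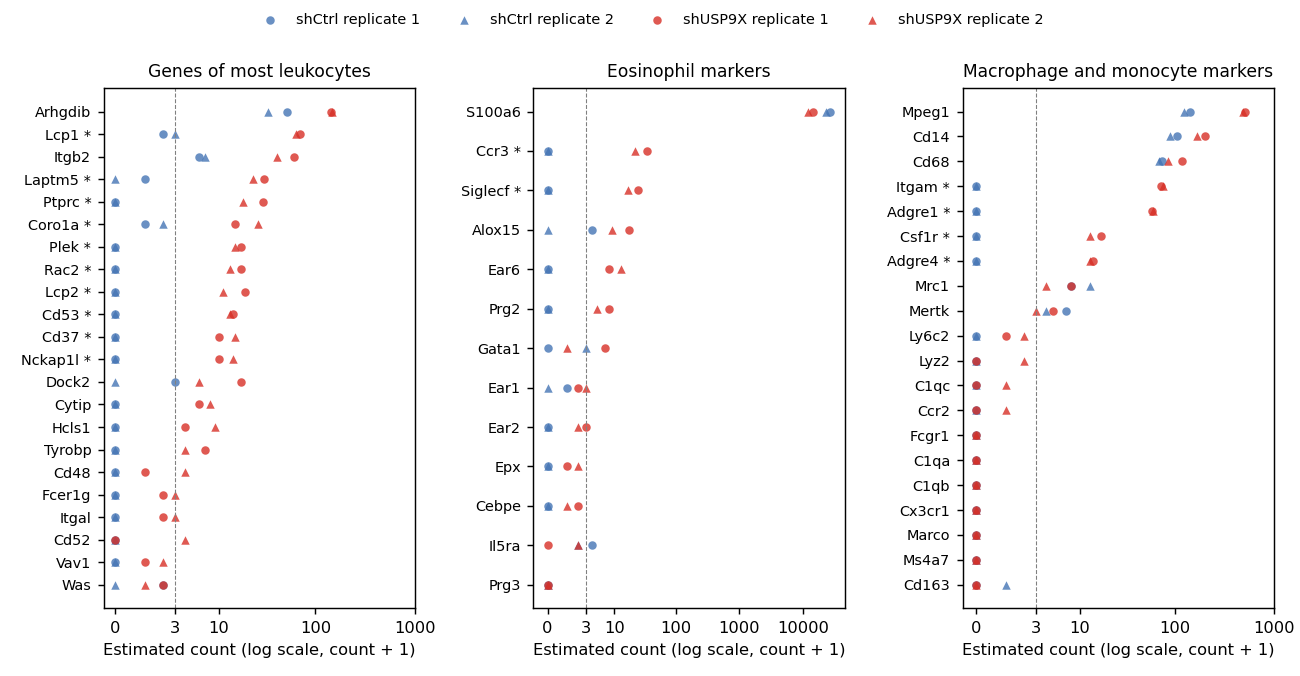
Estimated count (x axis, count + 1 on a log scale) of each gene of most leukocytes, eosinophil marker and macrophage or monocyte marker (y axis) in the 4 libraries, with shCtrl in blue, shUSP9X in red and stars on the genes of the 69. The dashed line marks 3 counts, and Epx, C1qa, C1qb and Lyz2 stay at or left of it in all libraries while Ptprc, Ccr3, Itgam and Adgre1 lie to its right in shUSP9X only.

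The lists of the other blood cells held few genes with more than 3 counts in any library. The 14 neutrophil markers summed to 3 and 5 counts in the controls and 6 and 13.1 in shUSP9X, with S100a8 and S100a9 at no more than 1 count and Retnlg the most abundant in shUSP9X, at 3 and 4. The 15 T and NK cell markers summed to 4 and 10 and to 17 and 11, with Trac the most abundant at 2 and 9 and then 10 and 9. The 11 B cell markers, apart from Blnk, summed to 0 and 2 and to 19 and 7, and Blnk rose from 221 and 216 to 743 and 665 counts (1.55, edgeR adjusted p = 2.8e-13). Of 13 mast cell and basophil markers, Kit rose by 0.57 (edgeR adjusted p = 0.00160), Gata2 and Cma1 were not called and 10 did not pass the filter. Of the dendritic cell list, Cd74, the invariant chain, had 1 and 4 counts in the controls and 49 and 45 after knockdown, Ccr7 rose as above and the most abundant gene, Zbtb46, was not called. The 12 erythroid and megakaryocyte markers summed to 13.2 and 21 counts in the controls and 20 and 25 in shUSP9X, with Itga2b the most abundant. The fibroblast and endothelial lists did not follow the pattern. Pdgfra, Col1a1 and Dcn fell (-2.87, -1.72 and -0.46, edgeR adjusted p at most 1.8e-09), although Dcn turned to 0.83 with the correction for GC content and length. Tek and Flt1 fell and Esam rose (-0.80, -0.63 and 1.27, edgeR adjusted p at most 1.2e-04). The call of Esam was lost on the FPKM scale.

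The Y chromosome genes Ddx3y, Kdm5d, Uty and Eif2s3y had no count in the shCtrl libraries. In shUSP9X they had 4 and 1, 1 and 1, 1 and 0, and 0 and 0 counts. Of 20 transcription factors of blood cells, 5 passed the filter. Cebpb rose by 0.39 (edgeR adjusted p = 2.3e-06), Cebpa rose by 0.21 (edgeR adjusted p = 0.0319), a call that was lost without shCtrl replicate 2 or either shUSP9X library, and Runx1 fell by 0.31 (edgeR adjusted p = 3.4e-04), which turned to 0.09 on the FPKM scale. Ikzf1 had 0 counts in shCtrl and 5 and 5 in shUSP9X, and Gata1 0 and 3 and then 7 and 1. In a bulk sample, a few cells of a type with much RNA of these genes and a low level in every cell cannot be told apart. The part of other cells or of the interferon genes in the counts of the 69 genes was not tested.

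The 69 genes did not stand apart in several features that can affect counting. The transcripts of the 69 had a median GC content of 48.8% and a median length of 3434 bases, beside 49.6% and 3468 bases over all genes tested. For the 32 genes of the reverse set the medians were 45.6% and 3814.5 bases. The 69 genes lie on 20 chromosomes, with 9 on chromosome 11, 8 on chromosome 7 and 7 on chromosome 1, and 9 lie within 100 kb of another of the 69. All but Trdc are protein-coding. Of the 69, 21 are in the 20 fixed lists of 305 genes in the table, and of the 32 genes of the reverse set only Muc16 is. The lists are mostly of blood cells and were written with earlier results of these data known, so this contrast is no support. They hold 305 of all 22063 genes.

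Neighbours of the 69 genes on the chromosome were taken outside the 69 only, although 9 of the 69 lie within 100 kb of another. Most of these other neighbours did not share the pattern, which leaving out the 69 partly fixes. Of 119 genes outside the 69 that lie nearest on either side within 100 kb, 50 were tested. Among these, 21 (42.0%) rose and 14 (28.0%) fell, beside 33.8% higher and 33.6% lower over all genes tested. Their median log2 fold change was 0.09. Of the 50, Rab37, counted as fallen, passed the filter through shCtrl only, and Ifit1bl1, which was not called, through shUSP9X only. With a replicate block and the correction for GC content and length, 17 neighbours rose and 14 fell. In that fit 4080 of all genes were higher and 3201 lower. Of the 119, Lilrb4a, Ccl3, Cd300a and Selp (3.36%) exceeded 3 counts in each shUSP9X library and in neither control, beside 0.839% of all genes in the table, and none of these 4 was tested. Selp, an adhesion receptor of platelets and endothelium that lies 1812 bases from F5, had 0 and 3 counts in the controls and 26 and 4 after knockdown. The largest rises, after Gm3776, were of Vnn1, a pantetheinase beside Vnn3, from 472 and 408 to 1972 and 1767 counts (1.95, SE 0.07, edgeR adjusted p = 4.1e-19), and Gstp1. The largest falls were of Lrif1 beside Cd53 (-2.35, edgeR adjusted p = 9.8e-12), Fbxo48 beside Plek (-1.74, edgeR adjusted p = 3.1e-05) and Zfp119a beside Adgre4 (-1.65, edgeR adjusted p = 1.6e-04), whose call was lost with the correction for GC content and length. Of 16 germ cell genes that DNA methylation silences, Piwil2 alone was tested and it was not called.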

How the data were processed

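Poly(A)-selected RNA of 2 shCtrl and 2 shUSP9X ID8 libraries was sequenced. The submitters' processing notes name fastp 0.18.0, Bowtie2 2.2.8, HISAT2, StringTie 1.3.1 and RSEM, and the study's methods the mouse build GRCm38. The strand setting is not given in the sources used here. The authors deposited 1 table of 22063 genes with estimated counts (expected counts, of which 6.40 to 6.69% were not whole) and FPKM values, the latter scaled by the authors to transcript length and depth. The table had 0 value columns that were not used.

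Expected counts were rounded for the rule and for the count tests, which had been planned for whole counts. Genes were tested with edgeR 4.0.16 (R 4.3.3) by the quasi-likelihood test after filterByExpr and TMM scaling, with a prior count of 2 and Benjamini-Hochberg adjustment over 11448 genes, and an adjusted p under 0.05 was called. The common biological coefficient of variation was 0.0352. Alternatives were DESeq2 1.42.0, limma 3.58.1 on log2(FPKM + 1) and log2(FPKM + 0.1), other scaling and filtering, a loess correction (span 0.3) for GC content and length, a replicate block and leaving out each library. On simulated counts for shUSP9X against shCtrl, 97% of 200 changed genes were recovered among 11448, with 12 false calls. A chi-square test of their counts gave 3.35 per gene between the shCtrl replicates and 2.23 between the shUSP9X replicates, so none was a repeat deposit of another.

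Ratios carry exact conditional 95% intervals, which cover counting error only and not the choice of genes by the same counts. The floor of 3 counts per library covers the counting error of shCtrl only, and the shUSP9X level is taken as measured. Positions come from GENCODE M21, which held 21973 of the 22063 identifiers, and promoters from RefSeq GRCm38.p6. The 69 genes and the lists were chosen with earlier results of these data known, and the 5 added lists and the role groups after the values were seen. By the rule for named genes, values were given for Usp9x, for the 20 of the 69 with the highest CPM and those in a list, near the limit or within 100 kb of each other, for the most abundant gene of each list and up to 3 called genes with its largest changes, and for the 3 neighbours that rose and 3 that fell most. Other genes were named by role or as markers after their values were seen. The authors' own processing decides how reads of close copies are divided. Some of the 69 genes are not reported here by name.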

Additional observations from a re-analysis of the deposited data

How the results depend on the processing

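The number of genes meeting the rule was 138 with at least 5 counts in shUSP9X, 19 with at least 20 and 39 with 0 counts in shCtrl, and it ran from 95 to 117 when 1 library was left out, with 117 without shUSP9X replicate 1. With counts scaled to the smallest library, 55 genes met the rule and 35 the reverse rule. Within 20 kb, 13 of 31 tested neighbours outside the 69 (41.9%) rose and 10 (32.3%) fell, beside 33.8 and 33.6% of all genes tested. These neighbours too include Rab37, counted as fallen, and Ifit1bl1, which each passed the filter through a single group. Of 50 named genes outside the 69, 40 kept direction and call under all 13 alternatives. Runx1 turned to 0.0894 on the log2(FPKM + 1) and 0.0947 on the log2(FPKM + 0.1) scale, Dcn to 0.83 with the correction for GC content and length, with or without the replicate block, and Lta4h to 0.0074 and 0.0066 in the same fits. The cause was not tested. Of the genes of most leukocytes outside the 69, 2 were called higher, Itgb2 through shUSP9X only, 6 with no filter beyond 1 count, 4 with DESeq2 and 1 on the log2(FPKM + 1) scale, and of the eosinophil markers 0 were called higher, 3 with no filter and 1 with DESeq2. Calls without the filter include genes near 0 in shCtrl and support nothing. Of all 650 list counts compared, 591 stayed within 1.5 times. The replicate numbers were not shown to pair the libraries (correlation of deviations -0.029 over 7797 genes), and with a replicate block 3855 genes were higher and 3810 lower, beside 3864 and 3843 without it. With the block and the correction for GC content and length together, 4080 genes were higher and 3201 lower. The block alone changed no call of a named gene. Of the 69 genes 35 had fewer than 20 counts in both shUSP9X libraries, so the depth limits what can be said of any single gene.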
